A study of Mus musculus with 6 samples.

Results

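The genes described here are p53, its regulators and its target genes, in acute lymphoblastic leukaemia cells of mice, driven by the fusion kinase BCR-ABL1, that have or lack AID. AID (activation-induced cytidine deaminase) is a DNA-editing enzyme of activated B cells that mutates immunoglobulin genes. The members were 32 genes chosen by name, with earlier results of these data known. Of these, 31 had a probe set annotated to them alone, among 18193 measured genes. Trp53, the gene of p53 itself, was not analysed here. The samples were 3 arrays of AID-/- leukaemia cells and 3 arrays of AID+/+ leukaemia cells, all labelled as strain Balb/c and all, by the series' title, driven by BCR-ABL1. The labels give no age, treatment, passage or method of making the leukaemias, and although the titles call the arrays biological replicates, nothing says whether those of a group came from separate animals or from 1 leukaemia, so the p-values cover only array-to-array spread, which may be technical. The genotype labels were not checked against expression here.

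p53 is a transcription factor that MDM2 and MDM4 hold at low activity, MDM2 by marking it for degradation and MDM4 mainly by blocking its activation domain. DNA damage, loss of growth signals or ARF, an inhibitor of MDM2, frees p53 to switch on genes of cell cycle arrest, death, DNA repair and metabolism, as well as MDM2 itself, which closes a feedback loop. In B-lineage precursors this programme limits survival when V(D)J recombination or an oncogene causes stress, and it is a barrier in BCR-ABL1-driven leukaemia.

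Values are the deposited log2 expression values, so a difference of 1 is a 2-fold change, and differences are AID-/- minus AID+/+. Expression differed widely between the groups: with limma, and Benjamini-Hochberg adjustment over all genes, 18.5% of genes passed the threshold of 0.05, and 10.1% were higher and 8.42% lower in AID-/-. The cells carried B-lineage transcripts in both groups, with Vpreb1, part of the surrogate light chain, averaging 13.19 ± 0.06 on AID-/- and 13.14 ± 0.03 on AID+/+ arrays (SD, n = 3). Of the 10 measured B-lineage progenitor markers 3 were higher (Blnk by 2.09, Rag1 by 3.74 and Rag2 by 2.78), and 7 did not pass. The summed log2 level of the 10 was 110.7 to 112.4 in AID-/- and 102.1 to 103.1 in AID+/+ leukaemia, so the groups were not alike in it. Of the other cell types, the 6 T cell markers lay between 2.73 and 5.79 on every array and their summed log2 level was 27.10 to 27.48 in AID-/- and 27.08 to 27.86 in AID+/+ leukaemia. The 3 NK cell markers summed to 10.29 to 10.91 and 11.82 to 12.59, the 9 myeloid markers to 36.88 to 37.93 and 36.54 to 39.52, the 3 erythroid markers to 12.08 to 12.83 and 12.10 to 12.61, and the 6 stromal and endothelial markers to 26.84 to 27.75 and 27.25 to 27.65. Of the T cell, NK cell, myeloid, erythroid and stromal markers, 1 was higher (Lyz2) and 1 lower (Klrd1); the part of other cells in the results was not tested. Female-specific Xist was at 6.02, 5.55 and 4.35 in AID-/- and at 11.94, 12.18 and 11.93 in AID+/+ leukaemia, and Y-linked Kdm5d was at 7.63, 7.62 and 7.74 against 2.68, 2.42 and 2.64, so the sex of the cells moved with genotype, and they cannot be told apart.

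Many p53 target genes were higher in AID-/- leukaemia. The 5 genes listed as regulators were too few for their count to be read against that of all genes. Of the 31 measured members, 14 passed with higher values in AID-/-, 2 passed with lower values and 15 did not pass, where 10.1% of all genes were higher and 8.42% lower. Of the 2 lower members, Sesn2 and Rrm2b, Rrm2b had probe sets called in both directions. The members were chosen with earlier results of these data known, so their shares are not independent of that choice. The median difference of the members was 0.41, and that of all genes was -0.03. Groups did not overlap in the higher direction for 17 members, against 17.5% of all genes, and in the lower direction for 3, against 19% of all genes, 20 in either direction against 36.5%. Increases of at least 1 log2 unit were called for 4 members (Phlda3, Zmat3, Ccng1 and Fas), against 3.11% of all genes. The higher members were genes of cell cycle arrest (5 of 8), of apoptosis and death receptors (6 of 10), of the sestrin and metabolic group (2 of 4) and of DNA repair (1 of 4), and of the 5 regulators 0 were called by limma (2, Mdm2 and Gtse1, had an unadjusted p under 0.05, and an ordinary linear model called 0). In bulk RNA, a change in the share of cells that express a gene and a change in RNA per cell cannot be told apart.

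**Figure D1:**
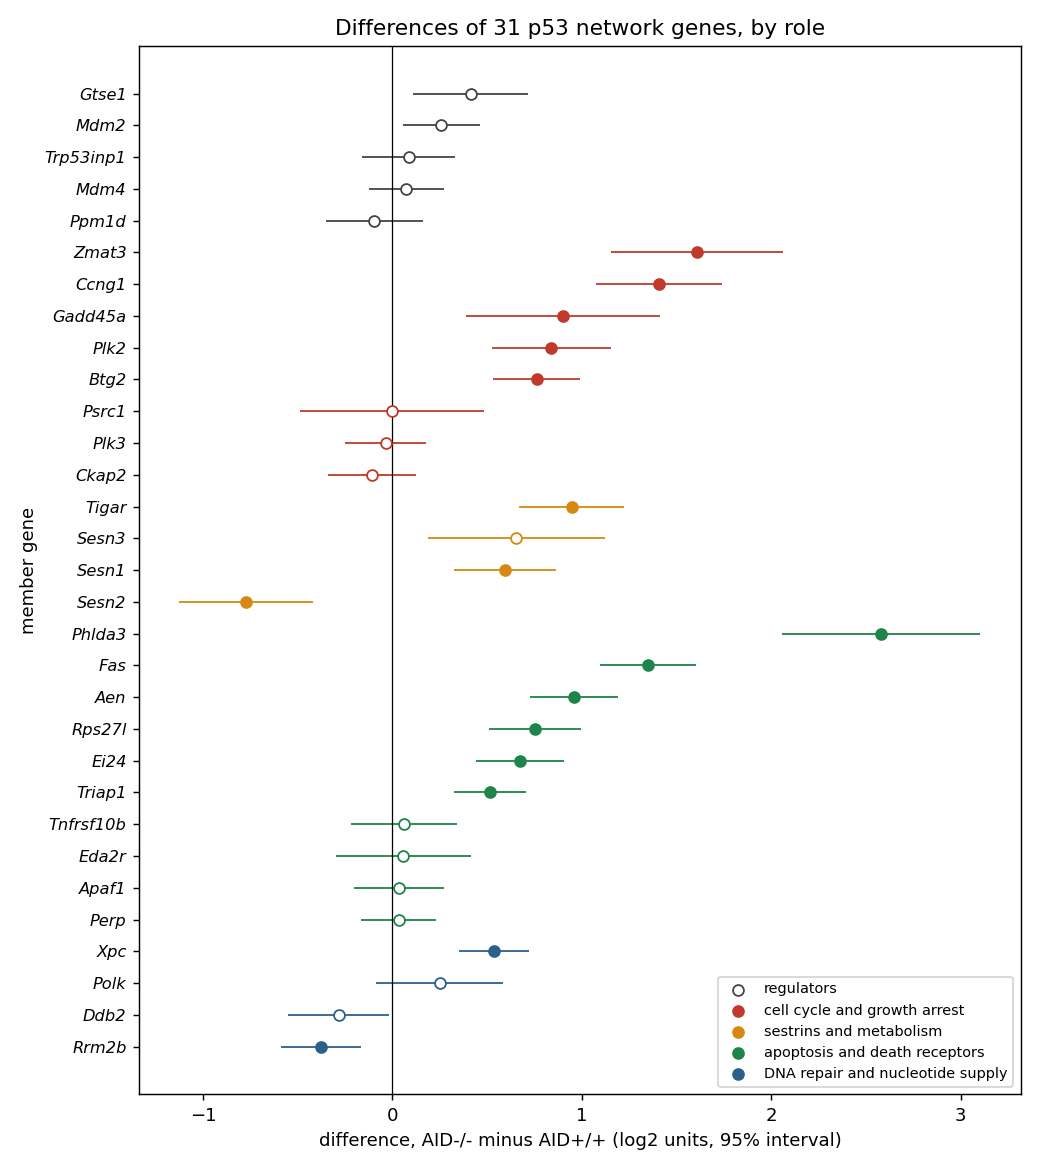
Difference of each of the 31 measured members, AID-/- minus AID+/+, in log2 units on the horizontal axis, grouped by role on the vertical axis; points are limma estimates from 3 arrays a group, bars are 95% intervals, and filled points passed the adjusted threshold of 0.05. Phlda3 lies farthest right at 2.58, Sesn2 farthest left at -0.77, and all 5 regulators are open points.

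Mdm2, the ubiquitin ligase of p53 and also its target, was at 9.06, 9.04 and 8.99 on the AID-/- arrays and 8.79, 8.87 and 8.66 on the AID+/+ arrays. Every AID-/- array was above every AID+/+ array, but the difference was small and did not pass, at 0.26 (95% interval 0.05 to 0.46, adjusted p = 0.0843). Its second probe set differed by 0.40 with no overlap, at 8.31, 8.50 and 8.56 in AID-/- and 8.24, 8.15 and 7.78 in AID+/+ leukaemia, and another, dim probe set differed by -0.14. Neither passed. Mdm4, the relative of MDM2 that masks the activation domain of p53, was at 8.65, 8.70 and 8.77 in AID-/- and 8.71, 8.57 and 8.61 in AID+/+ leukaemia. These overlapped, and the difference was 0.07 (95% interval -0.12 to 0.27, adjusted p = 0.622). A dimmer Mdm4 probe set was at 7.27, 6.86 and 6.72 against 6.17, 6.67 and 6.25, a difference of 0.59 that did not pass over all probe sets (adjusted p = 0.0633), and did not with probe sets of the suffixes _s_at and _x_at left out (adjusted p = 0.0581 over genes), and its other probe sets differed by 0.11 and -0.22.

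Ppm1d, which encodes the phosphatase WIP1 that switches p53 off again, differed by -0.10 (95% interval -0.35 to 0.16, adjusted p = 0.622). Trp53inp1, a stress protein that promotes the killing function of p53, differed by 0.09 (95% interval -0.16 to 0.33, adjusted p = 0.643). Gtse1, a microtubule protein of late cell cycle that restrains p53, was at 8.93, 9.04 and 9.19 in AID-/- and 8.90, 8.57 and 8.46 in AID+/+ leukaemia. Its groups were separated by only a narrow gap, and the difference was 0.41 (95% interval 0.11 to 0.72, adjusted p = 0.0674). It passed with array weights (adjusted p = 0.0202) and without AID+/+ replicate 1 (adjusted p = 0.0248). The intervals of Mdm4, Ppm1d and Trp53inp1 exclude a change of 1 log2 unit in either direction, and those of all 3 include 0.

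Among genes of cell cycle and growth arrest, Zmat3, Ccng1, Gadd45a, Plk2 and Btg2 were higher. Zmat3, a zinc finger RNA-binding protein and direct p53 target, was at 9.22, 8.48 and 9.20 in AID-/- and 7.51, 7.33 and 7.24 in AID+/+ leukaemia. It was higher by 1.61 (SE 0.20, adjusted p = 0.00127), or 3.05-fold, and AID-/- replicate 2 lay lowest of its group. Ccng1, which encodes cyclin G1, a partner of a phosphatase that acts on MDM2, was at 11.69, 11.25 and 11.82 against 10.14, 10.21 and 10.18. The difference was 1.41 (SE 0.14, adjusted p = 0.000580), or 2.65-fold, and its other probe sets gave 1.53 and 1.62. All 3 probe sets separated the groups, and in each AID-/- replicate 2 was the lowest of the AID-/- arrays.

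Btg2, an antiproliferative partner of the mRNA deadenylation machinery, was at 9.17, 8.93 and 9.16 in AID-/- and 8.31, 8.25 and 8.42 in AID+/+ leukaemia, higher by 0.76 (SE 0.10, adjusted p = 0.00178); a second probe set differed by 0.45 and did not pass. Plk2, a polo-like kinase of centriole duplication and stress, was at 5.64, 5.89 and 5.49 against 4.97, 4.63 and 4.91, higher by 0.84 (SE 0.14, adjusted p = 0.00443). Both groups were low on the scale here, a dimmer probe set differed by -0.09, and the mean over the probe sets gave 0.38. Gadd45a, a stress protein that binds PCNA and p21, was at 6.89, 7.68 and 7.74 in AID-/- and 6.69, 6.56 and 6.36 in AID+/+ leukaemia. AID-/- replicate 1 was close to the AID+/+ arrays, while replicates 2 and 3 were well above. The difference was 0.90 (SE 0.22, adjusted p = 0.0257), and the call held without AID-/- replicate 1 but was lost when any of the other 5 arrays was left out, with an adjusted p of up to 0.0982.

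The other 3 members of this group did not pass. Plk3, another polo-like kinase, differed by -0.04 (95% interval -0.25 to 0.18, adjusted p = 0.842). Ckap2, a spindle protein, differed by -0.11 (95% interval -0.34 to 0.12, adjusted p = 0.525), and Psrc1, a microtubule regulator, by -0.003 (95% interval -0.49 to 0.48, adjusted p = 0.995). The wide interval of Psrc1 came with uneven AID-/- arrays, at 9.94, 9.20 and 10.04, where replicate 2 was again the lowest, against 9.81, 9.80 and 9.59 in AID+/+ leukaemia.

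**Figure D2:**
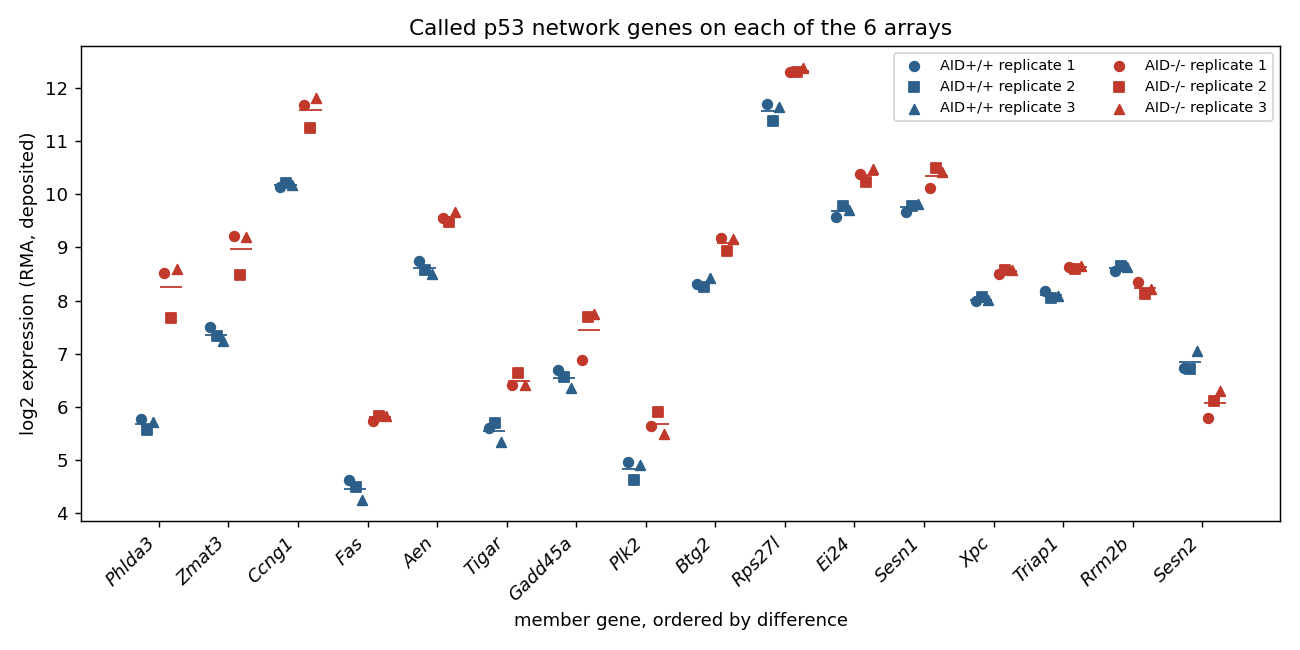
Deposited log2 expression of the 16 called members on each of the 6 arrays, genes on the horizontal axis in order of their difference; blue symbols are AID+/+ and red symbols AID-/- arrays, symbol shapes are replicate numbers, and short lines are group means. In all 16 the groups do not overlap. Rrm2b and Sesn2, at the right, are the 2 with lower AID-/- values at the probe set shown, and other probe sets of Rrm2b were called higher.

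Phlda3, which competes with AKT for membrane lipids and so represses AKT, showed the largest difference of all members. It was at 8.52, 7.68 and 8.60 in AID-/- and 5.78, 5.57 and 5.71 in AID+/+ leukaemia, higher by 2.58 (SE 0.23, adjusted p = 0.000255), or 5.98-fold. All AID-/- arrays were far above the AID+/+ arrays, and replicate 2 was the lowest of them. Fas, a death receptor, was at 5.74, 5.83 and 5.83 against 4.61, 4.49 and 4.25, higher by 1.35 (SE 0.11, adjusted p = 0.000169), or 2.55-fold, with AID-/- arrays within 0.10 of each other. The AID+/+ values of Fas were low on the scale. Aen, a nuclease of apoptotic DNA breakdown, was at 9.56, 9.47 and 9.66 against 8.75, 8.57 and 8.50, higher by 0.96 (SE 0.10, adjusted p = 0.000659). Its other 3 probe sets were also called higher, by 1.18, 0.82 and 0.69.

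Smaller increases were found in 3 further members of this group. Rps27l, a ribosomal protein relative that influences MDM2 and p53 stability, was at 12.30, 12.30 and 12.39 in AID-/- and 11.71, 11.39 and 11.64 in AID+/+ leukaemia, higher by 0.75 (SE 0.10, adjusted p = 0.00226). Its other probe sets differed by 0.60 and 0.81 and were called too. Whether these probe sets also read the closely related gene Rps27 was not tested. Ei24, an endoplasmic reticulum protein induced by p53, was at 10.38, 10.23 and 10.48 against 9.58, 9.78 and 9.71, higher by 0.67 (SE 0.10, adjusted p = 0.00303). Triap1, a mitochondrial lipid transfer protein that protects cells from apoptosis, was at 8.63, 8.60 and 8.64 against 8.19, 8.05 and 8.10, higher by 0.52 (SE 0.08, adjusted p = 0.00405). Its AID-/- arrays were within 0.04 of each other.

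The remaining members of this group did not pass. Apaf1, the scaffold of the apoptosome, differed by 0.04 (95% interval -0.20 to 0.27, adjusted p = 0.860). Perp, a desmosomal membrane protein, lay between 2.67 and 2.81 on the 6 arrays, near the lowest values of the table at 2.15. Eda2r, an X-linked receptor of the TNF receptor family, lay between 3.18 and 3.81, and Tnfrsf10b, the mouse TRAIL death receptor, between 4.12 and 4.46. At such levels a difference may not have been measurable, and these were 0.03, 0.06 and 0.06.

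Of the sestrins, stress proteins that restrain mTORC1 and oxidative damage, Sesn1 was higher and Sesn2 lower. Sesn1, a sestrin known as a p53 target, was at 10.12, 10.50 and 10.43 in AID-/- and 9.66, 9.78 and 9.81 in AID+/+ leukaemia, higher by 0.59 (SE 0.12, adjusted p = 0.0104). A second probe set was called higher by 0.56, and the others differed by 0.30 and 0.23 and did not pass. Sesn2, a leucine sensor that also responds to amino acid shortage through ATF4, was at 5.79, 6.10 and 6.30 against 6.74, 6.71 and 7.06 and fell by 0.77 (SE 0.15, adjusted p = 0.0105). All AID-/- arrays lay below all AID+/+ arrays at both of its probe sets, and the second fell by 0.93. Sesn3, a target of FOXO factors, was at 8.75, 9.52 and 9.29 against 8.68, 8.64 and 8.27, with AID-/- replicate 1 next to the AID+/+ arrays. Its difference was 0.65 (95% interval 0.19 to 1.12, adjusted p = 0.0609) and passed without that array (adjusted p = 0.00746).

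Tigar, a phosphatase that diverts glucose from glycolysis to the pentose phosphate pathway, was at 6.41, 6.64 and 6.42 in AID-/- and 5.61, 5.69 and 5.33 in AID+/+ leukaemia, higher by 0.95 (SE 0.12, adjusted p = 0.00153). A second probe set showed 6.44, 6.34 and 6.38 against 5.15, 5.17 and 5.26, a difference of 1.20 with no overlap. Another showed 5.23, 5.55 and 5.48 against 5.45, 5.27 and 5.47, which overlapped and differed by 0.02.

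The 4 DNA repair and nucleotide supply members had no common direction. Xpc, the damage sensor of global nucleotide excision repair, was at 8.49, 8.59 and 8.58 in AID-/- and 7.99, 8.06 and 8.01 in AID+/+ leukaemia, higher by 0.54 (SE 0.08, adjusted p = 0.00304). Ddb2, the partner sensor that brings XPC to ultraviolet lesions, was at 7.43, 7.57 and 7.19 against 7.58, 7.74 and 7.72; its groups did not overlap, but the difference of -0.28 (95% interval -0.55 to -0.02, adjusted p = 0.135) did not pass. Polk, a translesion polymerase, was at 7.69, 7.25 and 7.82 against 7.33, 7.35 and 7.33. It differed by 0.25 (95% interval -0.09 to 0.59, adjusted p = 0.301), with AID-/- replicate 2 below the AID+/+ arrays, and passed without that array (adjusted p = 0.0272).

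Rrm2b, the p53-inducible ribonucleotide reductase subunit, had 4 probe sets that passed in both directions. Its brightest was at 8.36, 8.12 and 8.22 in AID-/- and 8.55, 8.65 and 8.63 in AID+/+ leukaemia and fell by 0.38 (SE 0.09, adjusted p = 0.0253). The second fell by 0.52, from 7.46, 7.44 and 7.25 in AID+/+ to 6.83, 6.83 and 6.93 in AID-/- leukaemia. Its 2 dimmer probe sets were instead higher by 0.72 and 0.68, the former at 5.95, 5.56 and 5.90 against 4.98, 5.26 and 5.01. At all 4 probe sets AID-/- replicate 2 was again the lowest of its group, though almost level with replicate 1 at the second. No single direction can be given for the gene: the mean over the 4 probe sets differed by 0.13, with an adjusted p of 0.474. The brightest probe set no longer passed when replicate 2 or 3 of either group was left out, with an adjusted p of up to 0.0910.

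Other members with several probe sets gave a clearer picture. The 31 members had 63 probe sets, of which 25 were called higher, 4 lower and 34 not, where 14.6% of all 45037 probe sets were called in either direction. Of the 19 members with more than 1 probe set, 3 (Ccng1, Aen and Rps27l) were called higher at every one and 1 (Sesn2) lower at every one. A further 4 (Btg2, Plk2, Sesn1 and Tigar) were called higher at some and not called at the others, 10 had no called probe set, and Rrm2b alone was called in both directions. The higher members Phlda3, Zmat3, Fas, Gadd45a, Ei24, Triap1 and Xpc rest on 1 probe set each.

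**Figure D3:**
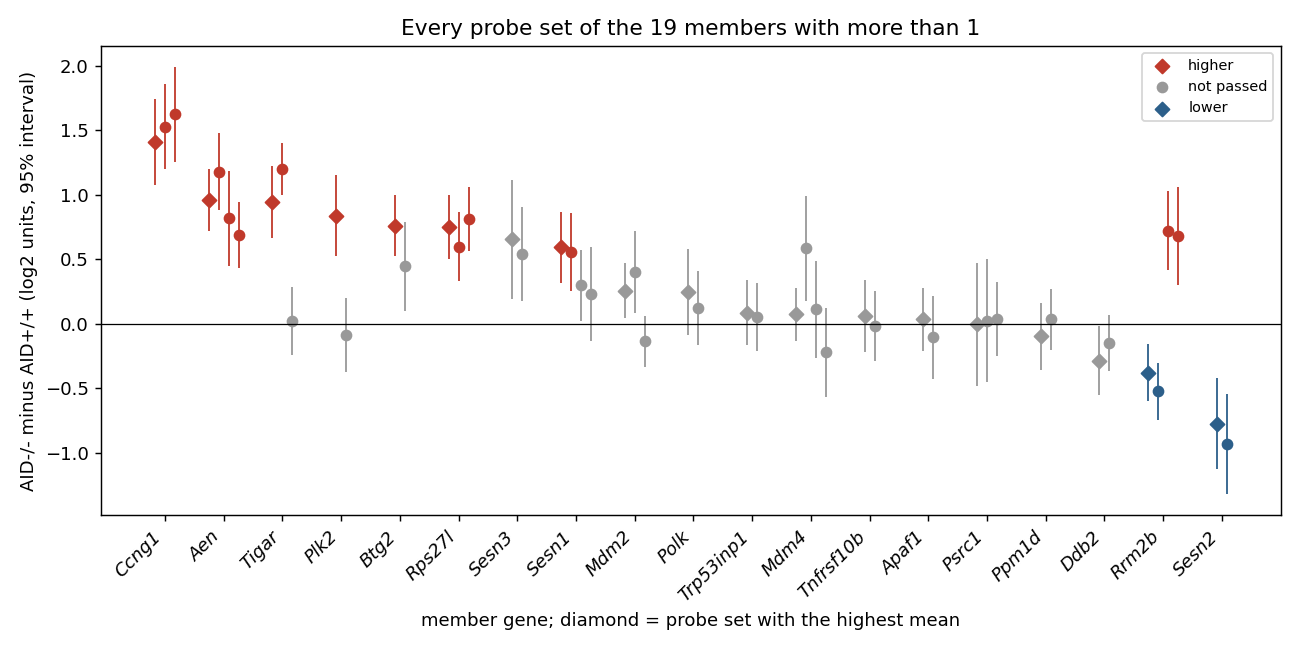
Difference of every probe set of the 19 members that have more than 1, AID-/- minus AID+/+ in log2 units on the vertical axis with 95% intervals; diamonds are the probe set with the highest mean, red and blue mark probe sets called higher and lower over all probe sets, and grey marks those that did not pass. The probe sets of Ccng1 lie together between 1.41 and 1.62, while those of Rrm2b lie on both sides of 0.

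The AID-/- arrays were not alike across the higher members. Phlda3, Zmat3 and Ccng1 exceeded the AID+/+ mean by 2.83, 1.86 and 1.51 in AID-/- replicate 1 and by 2.91, 1.84 and 1.64 in replicate 3, but by 1.99, 1.12 and 1.07 in replicate 2. Replicate 2 was the lowest AID-/- array for 8 of the 14 higher members, against 30.2% of the 1840 genes called higher. It was not low throughout: Plk2, Sesn1 and Tigar were highest in that array, at 1.06, 0.74 and 1.09 above the AID+/+ mean. Gadd45a and Sesn1 were instead lowest in replicate 1, at 0.35 and 0.36. Without replicate 2, 14 members were higher, and over the 6 fits that left out 1 array 13 to 15 were higher.

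**Figure D4:**
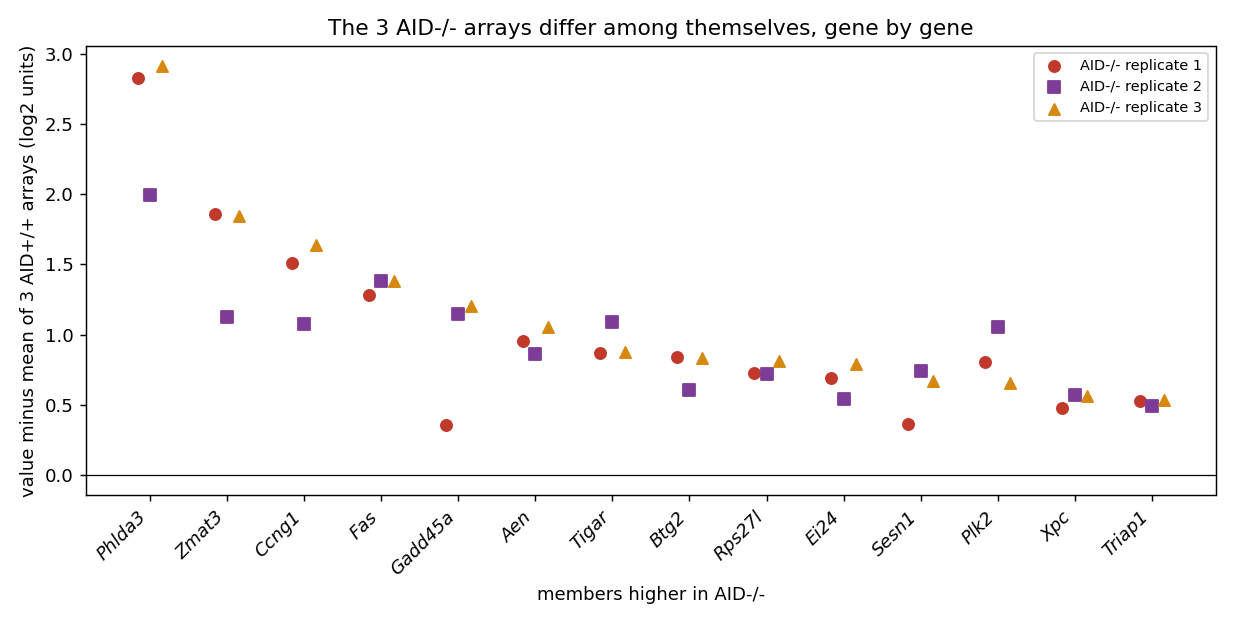
Value of each AID-/- array minus the mean of the 3 AID+/+ arrays, in log2 units on the vertical axis, for the 14 members called higher; each symbol is 1 array. All values are above 0, and the squares of replicate 2 lie lowest for Phlda3, Zmat3 and Ccng1.

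The promoters of the members were searched for the p53 half-site consensus, a run of 10 bases contacted by a pair of p53 molecules. The windows were RefSeq promoters of the GRCm38.p6 assembly, from 250 bases before to 50 after the start, on both strands, which the palindromic consensus covers in 1 search. Of the 24 measured members with a window, 11 held a match, or 45.8%, against 8.59% of the 14452 measured genes with one. The members were picked as known p53 genes, so this is a description of the choice. By call, 6 of 12 higher members, 5 of 11 that did not pass and 0 of 1 lower members held a match, and Phlda3, Fas, Btg2, Plk2, Tigar and Triap1 were the higher ones without. Trp53inp1, Zmat3, Perp, Tnfrsf10b, Ddb2, Rrm2b and Xpc were not searched.

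The stretch before the start is shown, as far as it lies outside the annotated gene, for the higher members Ccng1, Gadd45a and Ei24, and for Mdm2 as a member that did not pass, 5′ to 3′ with each half-site in capitals.
Ccng1: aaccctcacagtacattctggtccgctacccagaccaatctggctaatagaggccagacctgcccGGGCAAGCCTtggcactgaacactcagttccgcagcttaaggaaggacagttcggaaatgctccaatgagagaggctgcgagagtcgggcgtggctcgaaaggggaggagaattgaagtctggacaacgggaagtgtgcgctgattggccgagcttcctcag
Gadd45a: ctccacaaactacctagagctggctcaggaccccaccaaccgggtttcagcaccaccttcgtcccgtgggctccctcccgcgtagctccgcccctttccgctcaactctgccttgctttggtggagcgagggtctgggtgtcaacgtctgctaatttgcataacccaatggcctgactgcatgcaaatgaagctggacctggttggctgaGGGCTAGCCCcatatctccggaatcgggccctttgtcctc
Ei24: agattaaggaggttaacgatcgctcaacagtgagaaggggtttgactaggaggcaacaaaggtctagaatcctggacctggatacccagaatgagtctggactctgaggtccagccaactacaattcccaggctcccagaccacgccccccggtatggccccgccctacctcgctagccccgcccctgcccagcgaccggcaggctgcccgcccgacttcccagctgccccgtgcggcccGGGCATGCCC
Mdm2: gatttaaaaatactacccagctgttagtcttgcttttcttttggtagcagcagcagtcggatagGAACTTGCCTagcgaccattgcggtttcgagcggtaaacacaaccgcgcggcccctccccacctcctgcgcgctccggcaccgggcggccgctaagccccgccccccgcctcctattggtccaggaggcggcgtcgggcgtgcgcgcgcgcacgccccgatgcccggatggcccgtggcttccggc
They lie at chr11:40755310-40755536 (minus strand), chr6:67037408-67037657 (minus strand), chr9:36797335-36797584 (minus strand) and chr10:117710759-117711008 (minus strand) in GRCm38.p6. The matches of the higher members Rps27l, Sesn1 and Aen lie inside the annotated gene, after an earlier start, and their longer stretch is not shown. That of Sesn1, AAGCTTGTTT, lies 173 to 164 bases before its downstream start. That of Aen, GGGCTTGTCC, lies 121 to 112 bases before 1 of its 2 starts and 11 to 20 bases after the other. In Ccng1, the half-site GGGCAAGCCT lies 185 to 176 bases before the start, directly after a run, AGACCTGCCC, that fits the consensus at 9 of 10 positions. Rps27l holds 2 half-sites before its downstream start, GGGCTTGCTT at 210 to 201 bases and AGACTTGTCC at 107 to 98 bases; the latter follows a run with 9 of 10 matches, GGGCTTGTTG. Such a half-site with a second run of at least 9 matches within 13 bases was found in 4 of the 24 members (Ccng1, Rps27l, Gtse1 and Polk) and in 1.04% of measured genes. A pair of exact half-sites at that spacing was in 0 of the 24 and in 8 of the 14452 measured genes. The half-site of Ei24 ends at the base before the start, that of Gadd45a lies 40 to 31 bases before it, and that of Mdm2 186 to 177 bases before it. A match shows that the letters are present, not that p53 is bound, and sites outside these windows were not searched.

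Of 42 further genes of the p53 pathway, 38 were measured, and 5 were higher, 1 was lower and 32 did not pass, with a median difference of -0.06. These are 13.2% higher and 2.63% lower, where 10.1% of all genes were higher and 8.42% lower. Among 18 measured other targets 4 were higher, or 22.2%, and 0 lower by limma. At an unadjusted p under 0.05, 0 had lower values, and an ordinary linear model called 0 lower. These 18 genes were too few for their shares to be read against those of all genes. Their median difference was -0.005, with 9 differences above 0 and 9 below. Cdkn1a, the gene of the CDK inhibitor p21, was at 9.45, 9.46 and 10.10 in AID-/- and 7.05, 6.87 and 6.83 in AID+/+ leukaemia, higher by 2.75 (SE 0.18, adjusted p = 4.73e-05), or 6.75-fold. It was highest in AID-/- replicate 3 and close in replicates 1 and 2. Pmaip1, the gene of the killer protein NOXA, was at 8.25, 7.70 and 7.69 against 6.22, 6.11 and 6.27, higher by 1.68 (SE 0.15, adjusted p = 0.000322). Cd82, a tetraspanin, was at 8.01, 9.21 and 8.88 against 7.04, 6.86 and 7.40, higher by 1.61 (SE 0.29, adjusted p = 0.00720), but by 0.77 with its 2 probe sets averaged. The fourth, Steap3, a metalloreductase named after its values were seen, was higher by 0.92 (SE 0.17, adjusted p = 0.00743). Its call was lost with its 3 probe sets averaged.

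The lowest p-values among other targets with lower AID-/- values belonged to Sfn, which encodes 14-3-3 sigma, at -0.51 (95% interval -1.04 to 0.02, adjusted p = 0.180), and to Ak1 and Igfbp3, which lay near the low end of the scale and differed by -0.15 and -0.19. Bbc3, the gene of the killer protein PUMA, named after its values were seen, was at 7.13, 7.07 and 7.66 in AID-/- and 7.19, 7.08 and 7.21 in AID+/+ leukaemia. Only AID-/- replicate 3 stood above the others, and the difference was 0.13 (95% interval -0.23 to 0.49, adjusted p = 0.647).

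Of the 20 upstream genes and cofactors, 1 was higher and 1 lower, or 5% each, where 10.1% of all genes were higher and 8.42% lower. With 20 genes these shares cannot be told apart. Groups did not overlap in the higher direction for 2 of the 20 and in the lower direction for 5, against 17.5% and 19% of all genes. Ppp1r13b, which encodes ASPP1, a cofactor that steers p53 towards death genes, was at 7.39, 6.93 and 6.95 in AID-/- and 4.59, 4.95 and 5.15 in AID+/+ leukaemia, higher by 2.19 (SE 0.18, adjusted p = 0.000160), or 4.58-fold. The gap between the groups was far wider than the spread within either. Ppp1r13b rests on 1 probe set, of the suffix _s_at, and whether it also reads other transcripts was not tested. Atr, the checkpoint kinase of replication stress, was at 8.55, 8.29 and 8.27 against 8.79, 8.95 and 8.97 and fell by 0.53 (SE 0.11, adjusted p = 0.0108), a call lost without AID+/+ replicate 3. Ppp1r13l, the inhibitory relative of ASPP1, differed by -0.29 (95% interval -0.50 to -0.08, adjusted p = 0.0653), and Chek2, a kinase that activates p53, by -0.27 (95% interval -0.48 to -0.07, adjusted p = 0.0743). Neither passed, though groups did not overlap in either gene. Hipk2, a kinase of p53, differed by 0.17 (95% interval -0.06 to 0.41, adjusted p = 0.302).

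Cdkn2a, the locus of the MDM2 inhibitor ARF and of p16, was uneven within both groups. It was at 5.06, 4.94 and 6.51 in AID-/- and 4.19, 3.86 and 5.56 in AID+/+ leukaemia. The highest array of each group, replicate 3 in both, stood over 1 log2 unit above its other arrays. The groups overlapped, and the difference was 0.97 (95% interval -0.24 to 2.18, adjusted p = 0.264). Cdkn2a passed in limma with replicate number as a block (adjusted p = 0.00231), although the arrays were not treated as paired here. Its probe set was not separated into ARF and p16 here.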

How the data were processed

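Total RNA of the leukaemia cells was purified on RNeasy columns and 6 micrograms were labelled for Affymetrix 3′ arrays, per the labels' protocols. The deposited values are log2 expression per probe set; RMA and Partek are named, with no version, in the submitters' processing notes, and the genome build is not given in the sources used here. Without scanner files or detection calls, absence of a transcript could not be called; precision is limited by the number of arrays.

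The 64 array controls among 45101 probe sets were not used. Those with exactly 1 symbol (34945) were named by the platform annotation, then renamed through Entrez identifiers to the RefSeq symbols of GRCm38.p6 (34741 matched); 932 had several symbols and 9160 were not named in it. For a gene with several probe sets, the one of highest mean across the 6 arrays stands for it. AID-/- and AID+/+ arrays, grouped by title, were compared with limma 3.58.1 (R 4.3.3), by lmFit with genotype as its single term and eBayes, two-sided, with Benjamini-Hochberg adjustment over 18193 genes and a threshold of 0.05. Intervals are 95%, from the moderated fit. Probe sets were fitted the same way over all 45037.

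The members and gene lists were chosen with earlier results of these data known. Full values per array are given for called members with a difference of at least 0.5, for the main regulators and where probe sets disagree, and of the other pathway genes up to 3 a direction and role with the smallest p. Values per array of further members were chosen with their values in view. The fit was tested on simulated data with the means and spreads of the 18193 genes and 200 changed ones. In this simulated comparison of AID-/- and AID+/+ arrays, limma found 34.3% of genes changed by 0.5, 89.6% of those changed by 1 and 97.0% of those changed by 2, beside 11 false calls. The simulation drew noise independently for each gene and changed far fewer genes than the 3371 called in the data. Its rates may therefore not hold for the real comparison.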

Additional observations from a re-analysis of the deposited data

How the results depend on the processing

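Of the 16 called members, 11 kept their direction and call under all 18 alternatives; those that did not were Gadd45a, Plk2, Sesn1, Sesn2 and Rrm2b. The number of higher members was 14 with quantile normalization, an intensity trend, a filter on dim probe sets, median centring, probe sets averaged, probe sets without the suffixes _s_at or _x_at, and genes of chromosomes X and Y left out. The higher members all lie on other chromosomes, so leaving out genes of X and Y does not separate sex from genotype for them. Their number was 16 with array weights, 12 and 17 at thresholds of 0.01 and 0.1, and 11 with an ordinary linear model. Lower members numbered 0 with that model and at 0.01, 1 with probe sets averaged, and 1 with the replicate block, which left 14 higher. Rrm2b turned to 0.13 with probe sets averaged. The median difference of the members, 0.41, was 0.53 with the dim filter, which kept 28 members, 0.51 with array weights and 0.52 without the suffixed probe sets; with 1 array left out it was 0.32 to 0.52, with 13 to 15 members higher and 1 to 2 lower. Calls over all genes, 3371, fell to 1635 with the ordinary linear model, 1755 at 0.01, and 2142 to 3214 with 1 array left out, lowest without AID+/+ replicate 3. Of the other pathway genes, 1 was lower; this was 2 with quantile normalization, array weights or probe sets averaged, 3 with the dim filter or at 0.1, 0 with the ordinary linear model or at 0.01, and 0 to 1 with 1 array left out. Higher ones numbered 3, not 5, with the ordinary linear model. Same-numbered replicates did not deviate together (correlations of deviations from group means -0.05, -0.07 and 0.03), 1 of the 6 arrays correlated best with its own number in the other group, and they were not paired. With the replicate block, 2696 genes were called, Cdkn2a passed (difference 0.97, adjusted p = 0.00231), and the call on Rrm2b was lost (adjusted p = 0.0740). Differences at the low end of the scale, as for Perp, Eda2r and Tnfrsf10b, are limited by signal over background, which was not measured here.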
